A study of Mus musculus with 4 samples.

Results

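The genes described here are 36 mouse genes of DNA replication and of S phase, the stretch of the cell cycle in which the genome is copied. They were listed by symbol for their roles, with earlier results of these data known, out of 15935 genes listed in at least 1 of 4 libraries. All 36 were listed in all 4 libraries. They fall into 5 roles: 10 genes load or form the replicative helicase, 11 encode polymerases and other fork proteins, 5 supply nucleotides, 6 copy chromatin and its methylation, and 4 control entry into S phase.

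RNA was sequenced from bone marrow-derived macrophages, cells grown from the marrow of adult C57BL/6 mice for 5 days with M-CSF conditional medium, which makes macrophages form and divide. The group KO LPS came from ezh2 f/f mice with lysmcre, labelled EZH2-/-, and had 2 h of lipopolysaccharide (LPS), a bacterial ligand of Toll-like receptor 4, while KO NT had the same genotype and no treatment. The group WT LPS came from wild-type mice and had 2 h of LPS, and WT NT was wild type and untreated. The product of Ezh2 is the main enzyme of Polycomb repressive complex 2, which methylates histone H3 at lysine 27. The Cre recombinase is driven by the promoter of the lysozyme M gene, which is active in myeloid cells, so deletion takes place as these cells form. The labels name neither the floxed exons nor the dose of LPS, nor do they say whether a library pools several mice or whether a genotype's NT and LPS cells shared a culture. With 1 library a group, there is no replicate check of any difference and no p-value.

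The total expected count, which is the estimated number of reads assigned to genes, was 5237782 in KO LPS and 5668826 in KO NT, against 5635004 in WT LPS and 5678451 in WT NT. Levels are in FPKM, fragments per kilobase, scaled to library size. Ezh2 itself was low, with 1.29 FPKM in KO LPS and 2.06 FPKM in KO NT, against 2.52 FPKM in WT LPS and 2.84 FPKM in WT NT. The KO over WT ratio of Ezh2 was 0.512 with LPS (95% counting interval 0.275 to 0.919, 18 against 38 counts) and 0.725 without (0.441 to 1.18, 31 against 43 counts), and reads from outside the deleted exons still count for the gene. The interval without LPS includes 1, so at these counts Ezh2 is a weak check of the genotype labels, and KO names the libraries as labelled. Macrophage markers were high everywhere: Csf1r, the M-CSF receptor, had 552 FPKM in KO LPS and 762 FPKM in KO NT, against 572 FPKM in WT LPS and 704 FPKM in WT NT. Of the erythroid, T-cell and stem or progenitor markers, each list summed to at most 1.93 FPKM in any library, and Cd3e, Cd3g, Trac and Spink2 were at 0 in all 4. B-cell markers summed to 0.76 FPKM in KO LPS and 3.71 FPKM in KO NT, against 0.92 FPKM in WT LPS and 1.43 FPKM in WT NT.

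Before S phase, the MCM proteins are loaded onto replication origins, where they wait as an inactive double ring. Kinases then switch the ring on, Cdc45 and the GINS proteins join it, and the helicase opens the double helix ahead of the polymerases. Most genes of this machinery are transcribed in late G1 by E2F factors once the retinoblastoma protein lets go of them, so their messages mark cells that divide or are about to. Macrophages grown with M-CSF keep dividing for some days, and inflammatory activation is known to stop them.

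The 4 upstream stretches printed here show what these promoters look like. Each belongs to the member with the highest mean level in 1 of the first 4 role groups, and they are given because E2F sites are the best known feature of promoters of this kind. Each is the 250 bases before an annotated start in RefSeq on GRCm38.p6, written 5′ to 3′ on the minus strand, where all of them lie. Capitals mark the E2F letters TTTCCCGC, TTTGGCGC, TTTCGCGC or TTTGCCGC on either strand. The stretches are chr2:132253181-132253430 for Pcna, chr1:128359706-128359955 for Mcm6, chr9:20952980-20953229 for Dnmt1 and chr5:30073626-30073875 for Tyms.
Pcna: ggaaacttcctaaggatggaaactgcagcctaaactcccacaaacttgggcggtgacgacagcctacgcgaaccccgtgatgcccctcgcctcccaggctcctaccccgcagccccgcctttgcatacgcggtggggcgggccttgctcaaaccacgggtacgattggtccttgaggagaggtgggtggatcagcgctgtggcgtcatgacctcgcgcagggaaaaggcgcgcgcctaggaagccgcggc
Mcm6: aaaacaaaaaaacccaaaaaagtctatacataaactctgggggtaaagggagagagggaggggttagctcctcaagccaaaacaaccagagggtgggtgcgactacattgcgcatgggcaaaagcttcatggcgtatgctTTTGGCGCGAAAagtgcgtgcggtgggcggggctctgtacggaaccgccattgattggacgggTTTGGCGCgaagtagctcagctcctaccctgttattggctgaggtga
Dnmt1: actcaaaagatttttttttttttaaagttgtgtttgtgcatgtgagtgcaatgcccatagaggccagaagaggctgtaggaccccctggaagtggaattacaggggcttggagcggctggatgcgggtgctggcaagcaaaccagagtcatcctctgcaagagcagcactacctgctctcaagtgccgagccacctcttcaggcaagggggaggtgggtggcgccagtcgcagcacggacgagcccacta
Tyms: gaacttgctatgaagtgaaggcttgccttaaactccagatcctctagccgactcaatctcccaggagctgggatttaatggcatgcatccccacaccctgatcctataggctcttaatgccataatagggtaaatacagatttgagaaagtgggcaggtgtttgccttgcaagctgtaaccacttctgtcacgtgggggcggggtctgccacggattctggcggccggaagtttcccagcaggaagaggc
The Mcm6 stretch holds 3 matches, whose first bases lie 110, 106 and 47 bases before the start, the first pair overlapping on opposite strands. The stretches shown of Pcna, Dnmt1 and Tyms hold none, although the window of another annotated start of Dnmt1 does.

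Promoter windows of 250 bases before to 50 after a start were found in the RefSeq table for 32 of the 36 members. An E2F match lay in 13 of them (40.6%), against 4.29% of the promoters of genes listed in a library and 2.6% of 27025 promoters in the table. The 13 genes are Mcm3, Mcm5, Mcm6, Mcm7, Cdc6, Pola1, Pold1, Rfc3, Lig1, Uhrf1, Dnmt1, E2f2 and Hells. The CCAAT box (letters CCAAT, either strand) was found in 59.4% of members and 42.4% of listed genes. The cell cycle homology region, given here by TTTGAA or TTCGAA on either strand, was in 21.9% of members and 17.3% of listed genes, and in 72.2% of 18 mitotic genes with a window. A match is a string of letters and was not tested as a binding site.

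Levels spread widely among the members. Pcna, the sliding clamp that holds polymerases on DNA, stood far above the rest, with 402 FPKM in KO LPS and 467 FPKM in KO NT, against 494 FPKM in WT LPS and 491 FPKM in WT NT. Mcm6 came next in every library, and Cdc6 was the lowest member in every library. The median over the 36 members was 7.0 FPKM in KO LPS and 10.7 FPKM in KO NT, against 4.53 FPKM in WT LPS and 6.89 FPKM in WT NT. Without Pcna, the members summed to 281 FPKM in KO LPS and 463 FPKM in KO NT, against 194 FPKM in WT LPS and 309 FPKM in WT NT. The sum was thus highest in KO NT and lowest in WT LPS.

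**Figure D1:**
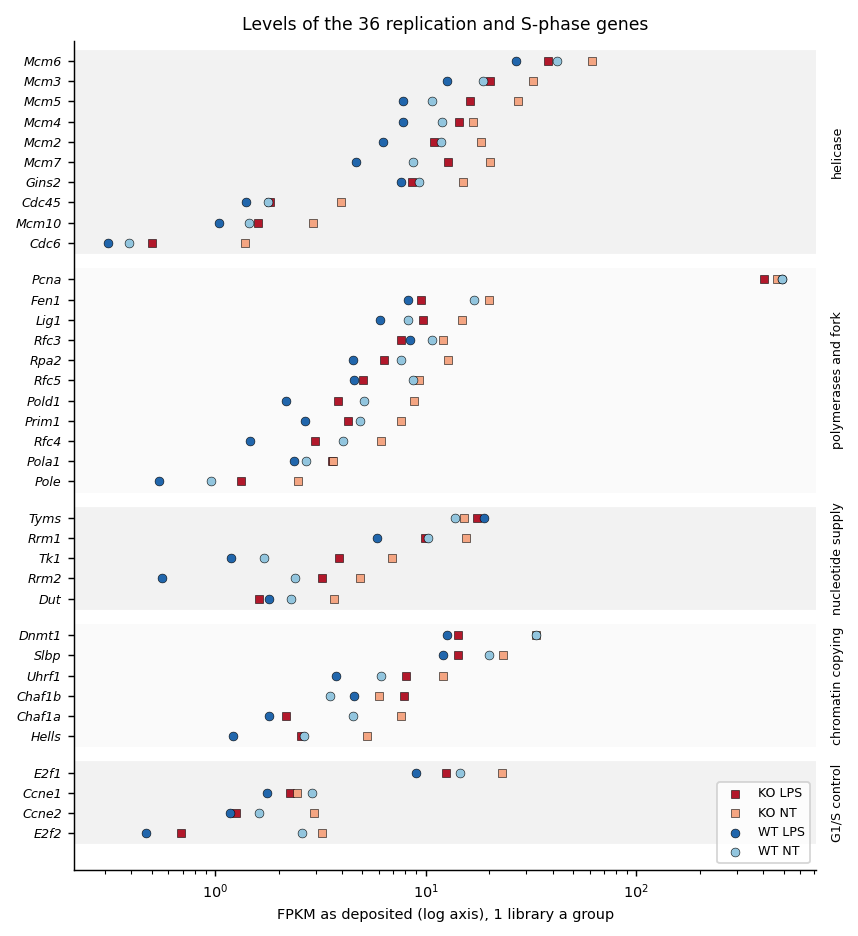
FPKM of the 36 members (log axis) in KO LPS, KO NT, WT LPS and WT NT, 1 library each, ordered by role and mean level. Pcna lies between 402 and 494 FPKM, Mcm6 follows at 26.7 to 61.4 FPKM, and KO NT is the rightmost symbol for most other members.

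Macrophages labelled EZH2-/- had more message of most replication genes than wild-type macrophages, with and without LPS. Without LPS, 33 of the 36 members had a log2 fold above 0, beside 5856 of all 10990 genes compared. The fold is taken on FPKM + 1 over genes of at least 1 FPKM in either library, a scale that understates the change of low genes. The median log2 fold of the members was 0.61, beside 0.02 over all genes compared. The members were chosen with earlier results of these data known, and 45 other replication genes, described below, had a smaller median of 0.24. Most differences were smaller than 2-fold: 3 members (Tk1, Mcm5 and Mcm7) were at least 2-fold higher in KO NT, where 0.928% of all genes were, and 0 were at least 2-fold lower, where 0.883% were. The ratio of length-corrected counts had its exact 95% counting interval above 1 for 24 members, against 14.2% of all genes, and below 1 for 1 member, Pcna, against 11.5%. These intervals hold counting error alone and leave out the spread between mice or cultures, and reads copied by PCR are not independent molecules. In bulk RNA, a larger share of dividing cells in KO and more message per cell in KO cannot be told apart.

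With LPS the picture was similar. Of the 34 members that reached 1 FPKM in either library (Cdc6 and E2f2 did not), 30 had a log2 fold above 0, beside 6439 of all 10375 genes. The members' median was 0.47, beside 0.08 over all genes. At least 2-fold higher in KO LPS were 3 members (Rrm2, Mcm7 and Tk1), beside 1.45% of all genes, and 0 were at least 2-fold lower, beside 1.12%. The interval lay above 1 for 17 members, beside 21.1% of all genes, and below 1 for 1 member, again Pcna, beside 9.52%. Of the 34 members that passed in both states, 28 had a ratio above 1 in each state, beside 39.4% of the 10045 genes that passed in both. The interval lay above 1 in each state for 16 members, beside 7.73% of those genes. Pcna alone among the members was lower in each, as were 23.7% of those genes. NT and LPS libraries are different treatments and not replicates of each other.

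**Figure D2:**
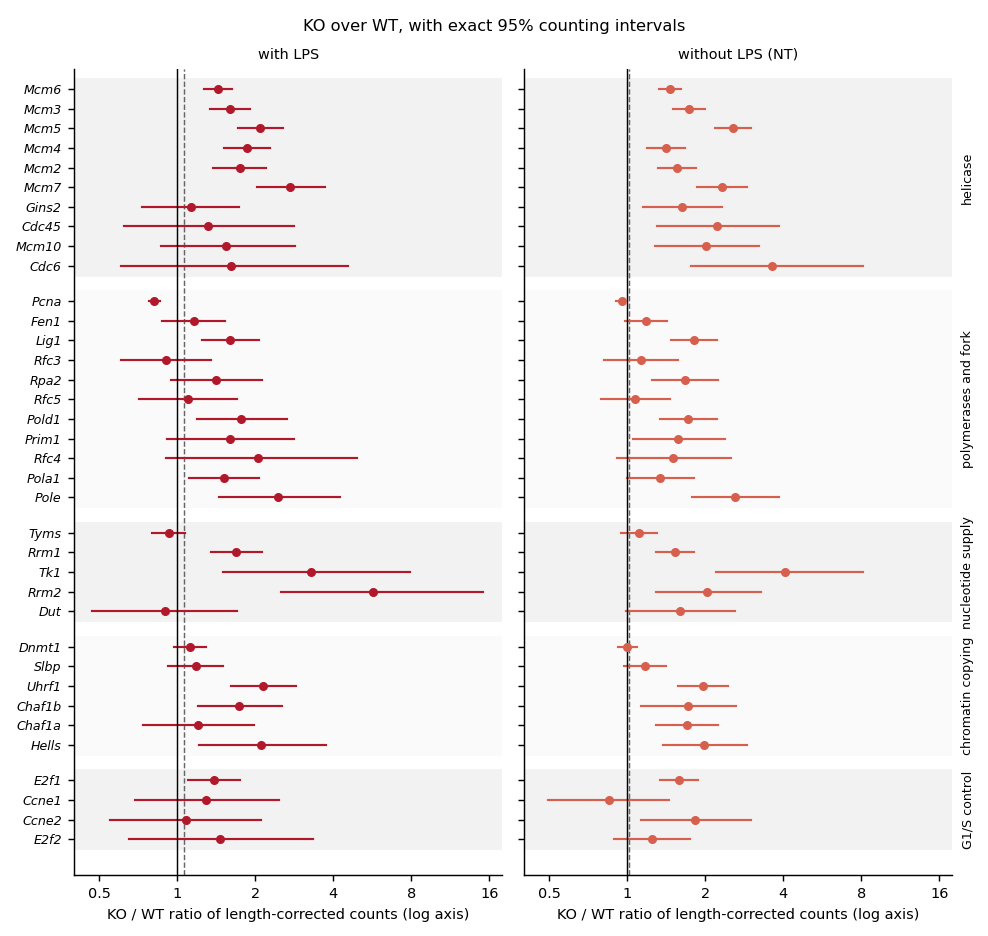
KO over WT ratio of length-corrected counts (log axis) for each member, with LPS (left) and without (right), with exact 95% counting intervals as lines; the dashed line is the median ratio of all genes and the solid line is 1. All 10 helicase genes without LPS lie wholly right of 1, and Pcna alone lies wholly left of it in both panels.

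The helicase genes were the only role group with every interval above 1 in KO NT over WT NT. All 10 had it there, with ratios from 1.41 to 3.61. With LPS, 9 passed the level filter, of which 6 had an interval above 1, beside 21.1% of all genes, and 3 included 1. Mcm2 to Mcm7, the 6 subunits of the helicase ring, summed to 113 FPKM in KO LPS and 176 FPKM in KO NT, against 65.8 FPKM in WT LPS and 104 FPKM in WT NT. Their summed counts at equal library totals gave a KO over WT ratio of 1.70 with LPS (1.58 to 1.83) and 1.69 without (1.60 to 1.80). The ring subunits did not share a single ratio, however.

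Mcm5 (gene ID 17218, chromosome 8, 75109468 to 75128439 in GRCm38.p6) had 16.3 FPKM in KO LPS and 27.3 FPKM in KO NT, against 7.81 FPKM in WT LPS and 10.7 FPKM in WT NT. Its KO over WT ratio was 2.08 with LPS (1.71 to 2.56) and 2.56 without (2.17 to 3.01). Both KO libraries stood above both WT libraries. Mcm7 (gene ID 17220, chromosome 5, 138164583 to 138172111) had 12.7 FPKM in KO LPS and 20.2 FPKM in KO NT, against 4.66 FPKM in WT LPS and 8.74 FPKM in WT NT. Its ratio was 2.73 with LPS (2.03 to 3.72) and 2.31 without (1.86 to 2.90). As with Mcm5, even the LPS-treated KO library exceeded the untreated WT library. Part of the Mcm7 exons, 10.8%, overlaps Ap4m1 on the other strand, and the strand setting of the counting is not given in the sources used here; Ap4m1 had 6.03 FPKM in KO NT, against 6.02 FPKM in WT NT.

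The other ring subunits differed less. Mcm2 had 10.9 FPKM in KO LPS and 18.4 FPKM in KO NT, against 6.26 FPKM in WT LPS and 11.9 FPKM in WT NT. Mcm3 had 20.1 FPKM in KO LPS and 32.2 FPKM in KO NT, against 12.6 FPKM in WT LPS and 18.6 FPKM in WT NT. These 2 genes had ratios without LPS of 1.55 (1.31 to 1.84) and 1.73 (1.502 to 2.0). Mcm4 had 14.4 FPKM in KO LPS and 16.8 FPKM in KO NT, against 7.76 FPKM in WT LPS and 11.9 FPKM in WT NT. Mcm6, whose promoter stretch carries the 3 E2F matches, had 38.2 FPKM in KO LPS and 61.4 FPKM in KO NT, against 26.7 FPKM in WT LPS and 42.2 FPKM in WT NT. Its ratio of 1.46 without LPS (1.32 to 1.60) rests on 1052 against 719 counts, and its interval lies wholly below that of Mcm5.

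The loading and activation factors were scarcer. Cdc6, which loads the ring together with the origin recognition complex, had 0.50 FPKM in KO LPS and 1.39 FPKM in KO NT, against 0.31 FPKM in WT LPS and 0.39 FPKM in WT NT. Its ratio without LPS, 3.61 (1.75 to 8.15), comes from 36 against 10 counts, and on the FPKM + 1 scale its log2 fold was 0.78. Cdc45, part of the active helicase, had 1.83 FPKM in KO LPS and 3.97 FPKM in KO NT, against 1.40 FPKM in WT LPS and 1.79 FPKM in WT NT. Gins2, a GINS subunit, had 8.61 FPKM in KO LPS and 15.1 FPKM in KO NT, against 7.66 FPKM in WT LPS and 9.30 FPKM in WT NT. For both, KO NT stood apart from the other 3 libraries, and their intervals with LPS included 1. Mcm10, which helps to start the helicase, had 1.59 FPKM in KO LPS and 2.92 FPKM in KO NT, against 1.04 FPKM in WT LPS and 1.45 FPKM in WT NT, with an interval with LPS that also included 1. In the GENCODE M21 annotation, Gins2 shares 70.7% of its 3900 exon bases with Gse1 on the other strand, whose ratio without LPS was 0.952. The deposited length of Gins2 was 1061 bases, so the exons counted may not be those that overlap.

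Among polymerase and fork genes, Pcna was lower in KO. Pcna (gene ID 18538, chromosome 2, 132249286 to 132253180) had a KO over WT ratio of 0.814 with LPS (0.774 to 0.857) and 0.950 without (0.906 to 0.997). Being so abundant, with 2621 to 3470 counts a library, it pulled the summed counts of the 11 genes of this group to a ratio of 0.895 with LPS and 1.06 without. Leaving Pcna out, the other 35 members summed to a ratio of 1.45 with LPS (1.39 to 1.52) and 1.47 without (1.42 to 1.52).

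The catalytic polymerase genes were higher in KO. Pole, the catalytic subunit of the leading-strand polymerase epsilon, had 1.32 FPKM in KO LPS and 2.46 FPKM in KO NT, against 0.54 FPKM in WT LPS and 0.95 FPKM in WT NT. Its ratio was 2.45 with LPS (1.45 to 4.24) and 2.59 without (1.78 to 3.86), on 50 against 22 and 101 against 39 counts. Pold1, the catalytic subunit of polymerase delta, had 3.82 FPKM in KO LPS and 8.75 FPKM in KO NT, against 2.16 FPKM in WT LPS and 5.11 FPKM in WT NT. Both genes had intervals above 1 in each state. Pola1, the catalytic subunit of polymerase alpha, had 3.57 FPKM in KO LPS and 3.62 FPKM in KO NT, against 2.36 FPKM in WT LPS and 2.71 FPKM in WT NT. Prim1, the primase that lays down RNA primers, had 4.27 FPKM in KO LPS and 7.65 FPKM in KO NT, against 2.68 FPKM in WT LPS and 4.86 FPKM in WT NT. The interval of Pola1 excluded 1 with LPS and that of Prim1 without it.

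The accessory fork genes divided. Lig1, the ligase that joins Okazaki fragments, had 9.71 FPKM in KO LPS and 14.9 FPKM in KO NT, against 6.07 FPKM in WT LPS and 8.25 FPKM in WT NT, and its ratio of 1.80 without LPS (1.47 to 2.22) was among the higher ones of the group. Fen1, the nuclease that trims those fragments, had 9.50 FPKM in KO LPS and 20.0 FPKM in KO NT, against 8.23 FPKM in WT LPS and 16.9 FPKM in WT NT, with both intervals including 1. Fen1 shares 78.8% of its exon bases with an annotated gene on the other strand. Rpa2, a subunit of the protein that coats single-stranded DNA, had 6.35 FPKM in KO LPS and 12.7 FPKM in KO NT, against 4.50 FPKM in WT LPS and 7.64 FPKM in WT NT. Of the clamp loader subunits on the list, Rfc3 had a ratio of 0.906 with LPS and 1.13 without, and Rfc5 had 1.10 with LPS and 1.07 without. Rfc4 had 2.04 with LPS (0.904 to 4.92) and 1.502 without (0.910 to 2.52), on 10 to 42 counts a library. In each state all 3 had intervals that included 1. Their levels lay between 1.46 FPKM (Rfc4 in WT LPS) and 12.1 FPKM (Rfc3 in KO NT).

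The largest ratios came from nucleotide supply. Tk1 (gene ID 21877, chromosome 11, 117815519 to 117826087), the thymidine kinase of the salvage pathway, had 3.89 FPKM in KO LPS and 6.93 FPKM in KO NT, against 1.19 FPKM in WT LPS and 1.71 FPKM in WT NT. Its ratio was 3.27 with LPS (1.5 to 7.88, 28 against 9 counts) and 4.07 without (2.19 to 8.12, 54 against 13 counts). Rrm2 (gene ID 20135, chromosome 12, 24708254 to 24714146), the small subunit of ribonucleotide reductase, had 3.21 FPKM in KO LPS and 4.89 FPKM in KO NT, against 0.56 FPKM in WT LPS and 2.40 FPKM in WT NT. Its ratio was 5.69 with LPS (2.50 to 15.1, 37 against 7 counts) and 2.04 without (1.30 to 3.27). For both genes the KO libraries were the higher in each state, and the width of the intervals shows how few reads they rest on. Rrm1, the large subunit, had 9.91 FPKM in KO LPS and 15.6 FPKM in KO NT, against 5.86 FPKM in WT LPS and 10.2 FPKM in WT NT, with ratios of 1.69 with LPS and 1.52 without. Dut, which removes dUTP, had 1.62 FPKM in KO LPS and 3.65 FPKM in KO NT, against 1.80 FPKM in WT LPS and 2.29 FPKM in WT NT. Tyms, which makes thymidylate, had 17.5 FPKM in KO LPS and 15.3 FPKM in KO NT, against 18.9 FPKM in WT LPS and 13.7 FPKM in WT NT. Neither Dut nor Tyms had an interval that excluded 1.

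Of the chromatin-copying genes, Uhrf1 and Dnmt1 work together in copying DNA methylation onto the new strand, yet their genotype ratios differed. Uhrf1, which recognises half-methylated DNA, had 8.05 FPKM in KO LPS and 12.0 FPKM in KO NT, against 3.75 FPKM in WT LPS and 6.15 FPKM in WT NT, with ratios of 2.15 with LPS (1.61 to 2.87) and 1.96 without (1.57 to 2.44). Dnmt1 (gene ID 13433, chromosome 9, 20907206 to 20959888), the methyltransferase, had 14.2 FPKM in KO LPS and 33.4 FPKM in KO NT, against 12.6 FPKM in WT LPS and 33.4 FPKM in WT NT. Its ratio was 1.12 with LPS (0.972 to 1.29) and 0.9996 without (0.916 to 1.09), on 1026 against 1028 counts without LPS. Hells, a chromatin remodeller needed for DNA methylation, had 2.56 FPKM in KO LPS and 5.26 FPKM in KO NT, against 1.22 FPKM in WT LPS and 2.65 FPKM in WT NT. Its interval lay above 1 in both states.

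The histone chaperone CAF-1 places new histones behind the fork. Its subunit gene Chaf1a had 2.18 FPKM in KO LPS and 7.64 FPKM in KO NT, against 1.81 FPKM in WT LPS and 4.50 FPKM in WT NT. Chaf1b, another subunit, had 7.91 FPKM in KO LPS and 6.01 FPKM in KO NT, against 4.56 FPKM in WT LPS and 3.51 FPKM in WT NT, so KO was higher in each state with ratios of 1.73 with LPS and 1.71 without. Slbp, which binds the stem-loop of histone messages, had 14.2 FPKM in KO LPS and 23.3 FPKM in KO NT, against 12.0 FPKM in WT LPS and 20.0 FPKM in WT NT, and both its intervals included 1. In all, 10 of the 36 members share over 5% of their exon bases with a gene on the other strand. These shares are of all exon bases in GENCODE M21, which can exceed the deposited length, as with 5535 against 3308 bases for Chaf1a. Chaf1a shares 33.6% with Ubxn6, Rfc5 15.4% with Wsb2, Slbp 14.4% with another annotated gene, Rfc4 13.4% with Eif4a2, Ccne2 10.5% with Ints8, Lig1 6.17% with Zswim9 and Tk1 5.76% with Afmid. Wsb2, at 71.2 FPKM in KO NT and 79.3 FPKM in WT NT, stands well above Rfc5, at 9.31 FPKM in KO NT and 8.69 FPKM in WT NT.

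The 4 control genes differed among themselves, and their summed counts gave a ratio of 1.33 with LPS (1.09 to 1.62) and 1.44 without (1.26 to 1.66). E2f1, an activating E2F factor, had 12.5 FPKM in KO LPS and 22.9 FPKM in KO NT, against 9.02 FPKM in WT LPS and 14.5 FPKM in WT NT, and its ratios of 1.38 with LPS (1.10 to 1.74) and 1.58 without (1.33 to 1.88) both excluded 1. E2f2, a second activating factor, had 0.69 FPKM in KO LPS and 3.22 FPKM in KO NT, against 0.47 FPKM in WT LPS and 2.59 FPKM in WT NT. Ccne1, a cyclin that drives entry into S phase, had 2.27 FPKM in KO LPS and 2.45 FPKM in KO NT, against 1.76 FPKM in WT LPS and 2.88 FPKM in WT NT. Ccne2, its sister cyclin, had 1.26 FPKM in KO LPS and 2.96 FPKM in KO NT, against 1.17 FPKM in WT LPS and 1.62 FPKM in WT NT. Among E2f2, Ccne1 and Ccne2, the interval excluded 1 in a single case, Ccne2 without LPS, with a ratio of 1.82 (1.13 to 3.004).

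LPS treatment for 2 h went with lower levels of most members, in a setting where most genes were lower too. The median log2 fold of all genes was -0.42 in KO and -0.46 in WT. FPKM is a share of reads, so strongly induced genes lower the values of the others. When libraries were rescaled by their median ratio, these medians became -0.03 in each genotype. That scaling brings the typical gene near no change by construction, and whether message fell in general was not tested. The members are therefore described relative to the median gene. In KO, the median log2 fold of the 36 members was -0.69, and 30 of them lay below the median gene. In WT, the median over 34 members (Cdc6 and Pole did not reach 1 FPKM) was -0.61, and 21 lay below the median gene. Before rescaling, 2 of 36 members in KO and 3 of 34 in WT had a log2 fold above 0, beside 2585 of all 11069 genes in KO and 2377 of all 10972 in WT. After rescaling, 6 members in KO and 11 in WT did, with member medians of -0.30 and -0.18. The median of all genes was then -0.03 in each genotype, so the all-gene counts from before rescaling are no background for these.

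Counts by the 2-fold rule were close to or under the background. In KO, 5 members were at least 2-fold lower with LPS (Chaf1a, E2f2, Dnmt1, Pold1 and Fen1), beside 15.1% of all 11069 genes, and 0 were at least 2-fold higher, beside 6.61%. In WT, 4 were at least 2-fold lower (Dnmt1, E2f2, Rrm2 and Rfc4), beside 17.2% of 10972 genes, and 0 were at least 2-fold higher, beside 6.41%. The interval lay below 1 for 30 members in KO, beside 57.2% of all genes, and for 22 in WT, beside 60.3%. It lay above 1 for 0 members in KO, beside 14.5%, and for 1 in WT (Tyms), beside 13.4%. Set against the median ratio of all genes, 0.718 in KO and 0.693 in WT, the interval lay wholly below it for 12 members in KO, beside 25.2% of all genes, and for 7 in WT, beside 26.8%. It lay wholly above it for 5 members in KO, beside 31.2%, and for 3 in WT, beside 31.8%.

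**Figure D3:**
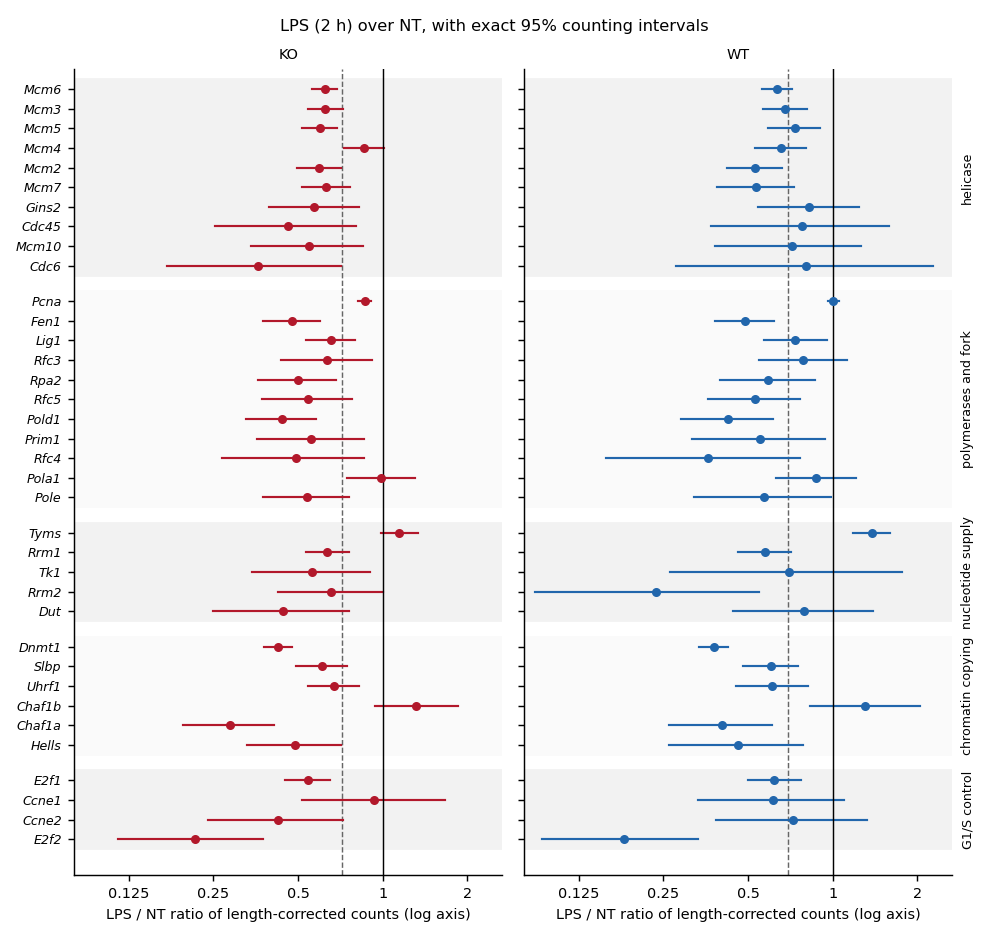
LPS over NT ratio of length-corrected counts (log axis) for each member in KO (left) and WT (right), with exact 95% counting intervals as lines; the solid line is 1 and the dashed line is the median ratio of all genes (0.718 in KO, 0.693 in WT). E2f2, Dnmt1, Chaf1a, Pold1, Fen1 and Mcm2 lie wholly left of the dashed line in both panels, and Pcna, Tyms and Chaf1b wholly right of it.

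Dnmt1 and E2f2 were at least 2-fold lower with LPS in both genotypes. Dnmt1 had an LPS over NT ratio of 0.424 in KO (0.377 to 0.476) and 0.378 in WT (0.336 to 0.426), and the LPS libraries of both genotypes, 14.2 and 12.6 FPKM, stood well under the 33.4 FPKM of the untreated ones. E2f2 (gene ID 242705, chromosome 4, 136172274 to 136196057) had a ratio of 0.214 in KO (0.115 to 0.376, 15 against 77 counts) and 0.182 in WT (0.0921 to 0.331, 13 against 69 counts). Chaf1a had a ratio of 0.286 in KO (0.194 to 0.411) and 0.403 in WT (0.263 to 0.607). For Pold1 the ratio was 0.437 in KO and 0.423 in WT, and for Fen1 0.475 in KO and 0.487 in WT. Those last 3 genes passed the 2-fold rule in KO and came close to it in WT, with log2 folds in WT of -0.97, -0.95 and -0.96.

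A few members stood above the median gene. Tyms was higher with LPS, at 1.15-fold in KO (0.984 to 1.34) and 1.38-fold in WT (1.18 to 1.60), and its interval was above the median ratio in both genotypes. Chaf1b had ratios of 1.32 in KO (0.935 to 1.86) and 1.30 in WT (0.833 to 2.04), while the ratio of its partner Chaf1a was well below 1. Pcna had 0.862 in KO (0.819 to 0.908), below 1 but above the median ratio, and 1.01 in WT (0.959 to 1.05). The Mcm2 to Mcm7 counts summed to a ratio of 0.640 in KO (0.604 to 0.678) and 0.638 in WT (0.592 to 0.687), a little under the median gene in each.

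The genotype difference in the LPS response was small for the members as a group. The log2 fold in KO minus that in WT had a median of -0.05 over the 34 members that passed, beside 0.05 over 10721 genes. Above 0 were 13 members and below it 21, beside 6257 and 4463 of all genes. The ratio of the KO response to the WT response had its exact interval include 1 for 33 of the 36 members. It lay above 1 for 2 members, Rrm2 (2.77, 1.05 to 8.25) and Mcm4 (1.32, 1.01 to 1.71), beside 11.4% of all genes. It lay below 1 for 1 member, Pcna (0.857, 0.799 to 0.920), beside 4.93% of all genes. For Rrm2 the lone low library was WT LPS, with 7 counts. The genotype comparisons with and without LPS and the LPS comparisons share libraries, so these values are not independent of each other.

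Other genes of replication, taken from a list of 45 that the 36 do not include, showed a smaller genotype difference. Without LPS, 43 passed the level filter, and 0 were 2-fold apart, beside 0.928% of all genes higher and 0.883% lower. The interval lay above 1 for 19, beside 14.2% of all genes, and below 1 for 2, beside 11.5%. Their median log2 fold was 0.24. With LPS, 39 passed, 6 had an interval above 1, beside 21.1% of all genes, and 1 below, beside 9.52%. The count above 1 was thus under the share of all genes. The median was 0.20, beside 0.08 over all genes. By mean level the leading 4 of this list were Samhd1, Top1, Cdt1 and Pold4. Cdt1, the partner of Cdc6 in loading the ring, had 13.4 FPKM in KO LPS and 39.0 FPKM in KO NT, against 11.4 FPKM in WT LPS and 31.2 FPKM in WT NT. Pold4, a small subunit of polymerase delta, had a KO over WT ratio without LPS of 1.502 (1.16 to 1.94). Samhd1, which breaks down the nucleotides that Rrm1 and Rrm2 help to make, was lower in KO, with ratios of 0.764 with LPS (0.727 to 0.802) and 0.883 without (0.845 to 0.923). Top1, a topoisomerase that also serves transcription, was higher with LPS, with ratios of 2.80 in KO and 2.28 in WT. It was the 1 gene of this list at least 2-fold higher, beside 6.61% of all genes in KO and 6.41% in WT. At least 2-fold lower with LPS were 10 of 43 in KO, beside 15.1% of all genes, and 11 of 41 in WT, beside 17.2%.

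Regulators of the G1 to S transition had a smaller median genotype fold than the members. Of 25 genes, 23 passed in each genotype comparison. Without LPS, 6 intervals lay above 1, beside 14.2% of all genes, and 1 below, beside 11.5%, with a median log2 fold of 0.13. With LPS, 8 lay above 1, beside 21.1% of all genes, and 1 below, beside 9.52%, with a median of 0.18. For LPS over NT, the median log2 fold was -0.52 in KO and -0.56 in WT, beside -0.42 and -0.46 over all genes. In KO, 4 of 24 were at least 2-fold higher, beside 6.61% of all genes, and 3 lower, beside 15.1%. In WT, 3 of 24 were higher, beside 6.41%, and 5 lower, beside 17.2%. Cdkn1a, the inhibitor p21 of cyclin-dependent kinases, had 738 FPKM in KO LPS and 86.5 FPKM in KO NT, against 849 FPKM in WT LPS and 110 FPKM in WT NT. Its LPS over NT ratio was 8.53 in KO (7.97 to 9.14) and 7.70 in WT (7.25 to 8.19), and its KO over WT ratio was 0.869 with LPS (0.843 to 0.896) and 0.784 without (0.719 to 0.855). Ccnd1, the cyclin that M-CSF induces, had an LPS over NT ratio of 0.518 in KO and 0.455 in WT. Its kinase partners differed: Cdk4 had ratios of 0.678 in KO and 0.640 in WT, and Cdk6 had 2.29 in KO and 1.91 in WT.

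Mitotic genes, used later in the cycle, had a median log2 fold between KO and WT of 0.26 with LPS and 0.40 without. With LPS, 16 of 22 passed, with 3 intervals above 1, beside 21.1% of all genes, and 0 below, beside 9.52%. Without LPS, 20 passed, with 7 above, beside 14.2%, and 0 below, beside 11.5%. For LPS over NT, 16 of 20 mitotic genes in KO had a log2 fold below 0, beside 8477 of all 11069 genes. In WT, 12 of 16 did, beside 8593 of all 10972 genes. The mitotic medians, -0.39 in KO and -0.25 in WT, lay above those of all genes, -0.42 and -0.46. The 2 genes of this list at the highest level were higher with LPS. Mki67, a proliferation marker, had 64.7 FPKM in KO LPS and 3.10 FPKM in KO NT, against 63.2 FPKM in WT LPS and 1.79 FPKM in WT NT. Cks2, a partner of the mitotic kinase, was also higher with LPS, with ratios of 3.71 in KO and 2.07 in WT. Cenpa, the histone of centromeres, had a KO over WT ratio of 1.79 in both states, and Ccna2, a cyclin of S and G2 phases, had 1.27 with LPS and 1.44 without, its intervals including 1. Replication-dependent histone genes could hardly be measured, and these messages lack the poly(A) tail that many library kits select. Without LPS, 10 of 26 passed, 0 had an interval above 1, beside 14.2% of all genes, and 2 below, beside 11.5%. The 4 highest, H2ac18, H2aw, H1f2 and H2bc4, had KO over WT ratios without LPS of 0.867, 0.641, 0.863 and 0.890, and only the interval of H2aw among them excluded 1.

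**Figure D4:**
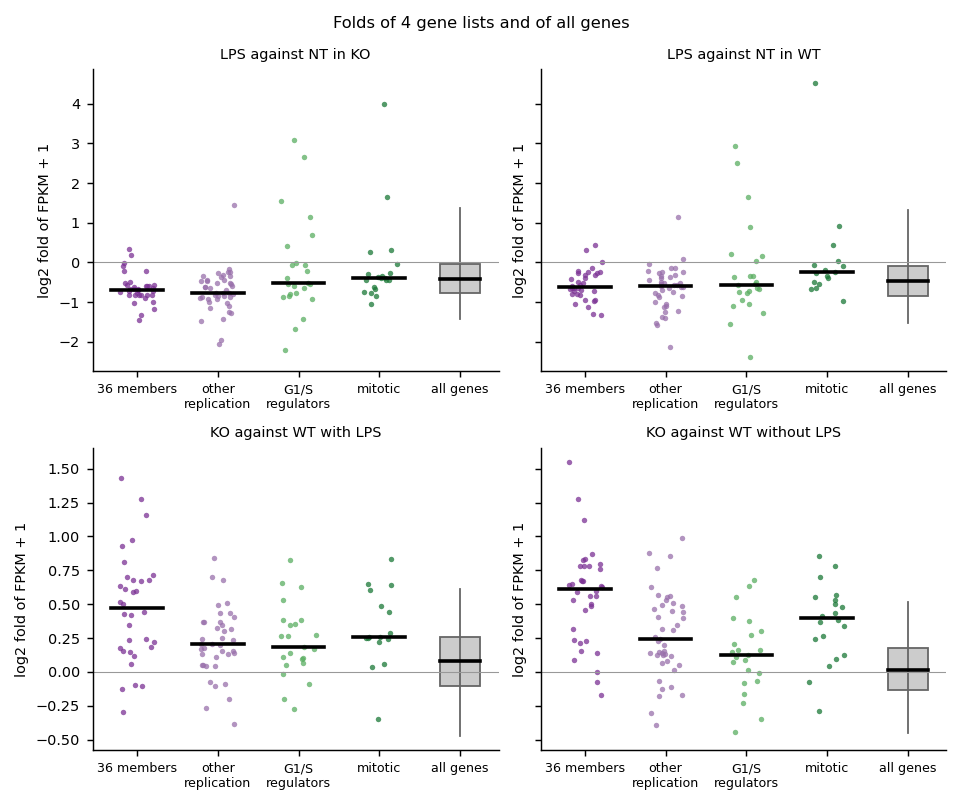
Log2 fold of FPKM + 1 for the 36 members, 45 other replication genes, 25 G1/S regulators and 22 mitotic genes that passed the level filter (points, with the median as a bar), beside all genes (box from the 25th to the 75th percentile, line from the 5th to the 95th, bar at the median). In the genotype panels the members' medians of 0.47 with LPS and 0.61 without stand above those of the other lists; in the LPS panels their medians lie within the box of all genes.

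Markers of other cells moved with the genotype as well. A list of 12 genes of neutrophils and their precursors summed to 612 FPKM in KO LPS and 683 FPKM in KO NT, against 440 FPKM in WT LPS and 405 FPKM in WT NT. Of the 12, 6 had an interval above 1 with LPS, beside 21.1% of all genes, and 8 without, beside 14.2%. Below 1 lay 0 in each state, beside 9.52% of all genes with LPS and 11.5% without. The median log2 fold of the list was 0.43 with LPS and 0.58 without. S100a9, an abundant neutrophil protein gene, had 247 FPKM in KO LPS and 282 FPKM in KO NT, against 183 FPKM in WT LPS and 156 FPKM in WT NT. The granule enzyme genes Elane, Mpo, Prtn3 and Ctsg, which mark dividing neutrophil precursors, were low in all 4 libraries, between 0.71 and 4.24 FPKM. Their KO over WT ratios without LPS were mixed: 2.84 for Elane (1.07 to 8.79), 2.504 for Ctsg (0.722 to 10.9), 0.840 for Mpo (0.570 to 1.24) and 0.751 for Prtn3 (0.280 to 1.94). Fibroblast and stromal genes were low and ran the other way, with a sum of 3.50 FPKM in KO LPS and 3.69 FPKM in KO NT, against 6.90 FPKM in WT LPS and 6.57 FPKM in WT NT. The part of these cells in the members' genotype difference was not tested.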

How the data were processed

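RNA for 4 libraries of bone marrow-derived macrophages, 1 for each genotype and treatment, was extracted with Trizol, cleaned on a column and sequenced on an Illumina instrument, per the labels' protocols. Titles gave the groups. Bowtie and RSEM were used with the mm10 genome, per the submitters' processing notes. Not given in the sources used here are versions, annotation, strand setting, message selection and read filters.

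The deposited expected count was estimated by the authors with RSEM, which splits a read among the genes it fits; 78.7% to 79.4% of values per library were whole numbers. The deposited FPKM is the authors' level per kilobase, scaled to library size. The deposited length, another column per the file headers, differed between libraries by more than 5% for 3 members (Mcm10, Cdc45 and E2f2), and 4 members had fractional counts (Mcm5, Mcm10, Tyms and E2f1). A gene not listed in a library was set to 0.

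Of 15935 gene IDs, 15897 matched the RefSeq table of GRCm38.p6, the same assembly as mm10. Folds are log2 ratios of FPKM + 1. A gene entered a comparison with 1 FPKM or more in either library, and genes at least 2-fold apart were counted. Ratios are of expected counts, rounded for the interval, corrected for library total and length, with exact 95% Clopper-Pearson intervals, which cover counting error only. Each was computed over all genes with python 3.11.15, numpy 2.4.6, pandas 2.3.3 and scipy 1.17.1, and the computation was tested on simulated counts. Where a gene has no counts in a library, a floor of 3 counts stood in for it as an alternative. The 5 alternatives of scale or filter were a pseudocount of 0.1 or 5, a filter of 5 FPKM or none, and a rule of 1.5-fold; 2 of normalization were median-ratio scaling and CPM. Exon overlap was read from GENCODE M21.

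All members are named; from each other list the 4 genes of highest mean FPKM are named, besides marker genes that summarise a list, of which the 4 granule enzyme genes were chosen after their values were seen. The members and lists were chosen with earlier results of these data known.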

Additional observations from a re-analysis of the deposited data

Results flagged for a closer look

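Pcna was lower with LPS in KO and unchanged within counting error in WT. Its LPS over NT ratio was 0.862 in KO (95% counting interval 0.819 to 0.908) and 1.01 in WT (0.959 to 1.05). Both intervals lay above the median ratio of all genes, 0.718 in KO and 0.693 in WT. The 5 other members set apart here have a KO over WT ratio on opposite sides of 1 in the 2 states. Tyms had 0.925 with LPS (0.801 to 1.07) and 1.11 without (0.949 to 1.31). Dut had 0.897 with LPS (0.470 to 1.69) and 1.59 without (0.988 to 2.60). Rfc3 had 0.906 with LPS (0.604 to 1.35) and 1.13 without (0.811 to 1.56). Dnmt1 had 1.12 with LPS (0.972 to 1.29) and 0.9996 without (0.916 to 1.09). Ccne1 had 1.29 with LPS (0.683 to 2.46) and 0.850 without (0.495 to 1.45). Each of these 5 genes has intervals that include 1 in both states. For Pcna, the ratio of the KO response to the WT response was 0.857, and its counting interval of 0.799 to 0.920 excluded 1. With 1 library a group, none of the 6 differences was tested against the spread between samples.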

How the results depend on the processing

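No median or count of the members changed direction under the alternatives run. The number of members past the size rule depended on the scale. The share of all genes past the rule under each alternative is not given, so these counts do not set the members against other genes. With LPS, the median log2 fold of all genes was itself -0.42 in KO and -0.46 in WT. Members at least 2-fold lower with LPS numbered 5 in KO, against 11 with a pseudocount of 0.1, 1 with a pseudocount of 5, 2 after median-ratio scaling and 26 under a 1.5-fold rule. In WT they numbered 4, against 8 with a pseudocount of 0.1, 1 with a pseudocount of 5, 1 with a filter of 5 FPKM, 1 after median-ratio scaling, 7 from CPM and 18 under a 1.5-fold rule. Members at least 2-fold higher in KO without LPS numbered 3, against 6 with a pseudocount of 0.1, 1 with a pseudocount of 5, 5 from CPM and 20 under a 1.5-fold rule. With LPS they numbered 3, against 7 with a pseudocount of 0.1, 0 with a pseudocount of 5, 1 with a filter of 5 FPKM, 6 from CPM and 15 under a 1.5-fold rule. The median LPS fold of the members in WT was -0.61, and -0.18 after median-ratio scaling, which moved the median of all genes from -0.46 to -0.03. The members' median genotype fold ranged from 0.26 to 0.57 with LPS and from 0.37 to 0.67 without. Of the single members' values under these settings, 878 stayed within their counting interval and 62 moved out of it. A pseudocount weighs most on members of few counts, such as Cdc6, Rrm2 and Tk1. No paired analysis was possible because each group has 1 library, and for the same reason none could be left out.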
